A study of Mus musculus with 69 samples.

Results

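The cortical collecting duct (CCD) was compared between mice that had lost a kidney and sham-operated mice, 72 h after surgery. Of the 69 RNA-seq libraries of the series, 13 were of CCD at 72 h. The sham group held 7 libraries from 4 animals, and the group with unilateral nephrectomy (UNx, removal of 1 kidney by excision) held 6 libraries from 4 animals. All mice were wild-type (WT) C57BL/6 males from Taconic, 7 weeks old when assigned to surgery, and both groups were labelled WT. Tubules were microdissected, so each library pools all cell types of the segment, and cDNA was made from polyA RNA with a low-input kit. Titles number the animals of each group, as read here, and libraries of the same number were averaged before any comparison. The labels do not say more about how animals were sampled, so p-values measure only the spread between these numbered animals.

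The collecting duct is the last tubule segment, where the volume and composition of the urine are set. Its principal cells take up sodium through the epithelial sodium channel ENaC and water through aquaporins under the control of aldosterone and vasopressin. Its intercalated cells secrete acid or base. When a kidney is lost, the remaining kidney grows, largely by enlargement of existing cells and in part by cell division. A cell that enters division first raises E2F transcription factors and the genes of DNA replication (S phase). Later it raises the cyclins, kinases and spindle proteins of mitosis, many of which are held down in resting cells by the DREAM complex through promoter elements called CHR (cell cycle genes homology region) and kept active through CCAAT boxes.

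Of the genes that passed the test between UNx and sham at 72 h, nearly all were higher in UNx, and 41 belonged to lists of DNA replication or mitosis genes. Of 13770 genes with a mean of at least 1 TPM (an abundance scaled for transcript length and library total) over the animals, 82 (0.595%) passed at an adjusted p under 0.05 by limma, with 80 higher (0.581%) and 2 lower (0.0145%) in UNx. At an unadjusted p under 0.05, 1031 genes (7.49%) differed, 642 of them higher (4.66%) and 389 lower (2.82%). In all 80 higher genes past the threshold the 4 UNx animals lay above the 4 sham animals, which was so in 3.23% of all genes. Genes chosen by small p in the same animals tend to be separated in this way, so the separation adds no support of its own. Changes are differences of mean log2(TPM + 1), a scale on which low genes change less than in TPM, and they ranged from 0.66 to 2.70 in these 80 genes with a median of 1.51. Of the 80 genes, 41 belonged to a list of S phase genes or a list of mitosis genes and 39 to neither. Together the 2 lists held 82 of the 13770 genes tested. They do not hold every cell cycle gene, and Spc24, Cenph, Cks1b and Cdkn3 were among the 39. The median change of all genes tested was 0.010.

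Promoters of the genes that rose are shown for the elements that S phase genes and mitosis genes among them hold. RefSeq windows of GRCm38.p6, reaching from 250 bases before the start site to 50 bases after it, were found for 67 of the 80 genes. Each gene was read in the first window listed. An E2F site was searched as TTTCCCGC, TTTGGCGC, TTTCGCGC or TTTGCCGC, a CHR as TTTGAA or TTCGAA, and a CCAAT box as CCAAT, each on both strands. Matches of an element may overlap each other, and TTCGAA is its own reverse complement. Of 10056 tested genes with a window, 4.09% held an E2F site, 13.7% a CHR and 39.1% a CCAAT box. Among the S phase genes that rose, 5 of 11 with a window (45.5%) held an E2F site, 1 (9.09%) a CHR and 7 (63.6%) a CCAAT box. Among the mitosis genes that rose, 17 of 23 with a window (73.9%) held a CHR, 17 (73.9%) a CCAAT box and 1 (4.35%) an E2F site. A match describes the letters of the window and says nothing of binding.

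The first 3 sequences are of S phase genes that rose and have an E2F site in the 150 bases before the start site, in capitals. They are the only S phase genes among the higher genes with a match in that stretch, apart from any on a chromosome left out of the choice. Mcm5 and Mcm6 encode subunits of the replicative helicase, and Cdc6 encodes the factor that loads it. They lie on chromosomes 8, 1 and 11 of GRCm38.p6, at chr8:75109359-75109508 (plus strand), chr1:128359706-128359855 (minus strand) and chr11:98908001-98908150 (plus strand).
Mcm5: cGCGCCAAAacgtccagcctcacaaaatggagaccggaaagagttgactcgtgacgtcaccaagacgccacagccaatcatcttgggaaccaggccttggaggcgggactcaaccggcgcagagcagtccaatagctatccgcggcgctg
Mcm6: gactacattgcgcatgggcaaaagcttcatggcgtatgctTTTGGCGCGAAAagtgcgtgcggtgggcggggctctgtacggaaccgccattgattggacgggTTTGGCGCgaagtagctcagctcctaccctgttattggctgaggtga
Cdc6: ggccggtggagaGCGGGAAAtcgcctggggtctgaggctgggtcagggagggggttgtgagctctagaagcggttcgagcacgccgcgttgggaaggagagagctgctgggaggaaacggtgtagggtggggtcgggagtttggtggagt

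The next 3 are of the mitosis genes of smallest p among the 5 higher ones with a CHR in the 150 bases before the start site. A chromosome was left out of this choice, so the 5 do not count genes on it. Both CHR and CCAAT boxes are in capitals. Top2a encodes the topoisomerase that untangles sister chromatids, Cdk1 the kinase that drives entry into mitosis, and Cdc20 the activator of the anaphase-promoting complex. They are the minus strand of chr11:99024190-99024339, chr10:69352913-69353062 and chr4:118437344-118437493.
Top2a: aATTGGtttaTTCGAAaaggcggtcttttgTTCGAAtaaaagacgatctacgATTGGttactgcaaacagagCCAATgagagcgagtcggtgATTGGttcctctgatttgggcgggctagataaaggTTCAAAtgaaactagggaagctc
Cdk1: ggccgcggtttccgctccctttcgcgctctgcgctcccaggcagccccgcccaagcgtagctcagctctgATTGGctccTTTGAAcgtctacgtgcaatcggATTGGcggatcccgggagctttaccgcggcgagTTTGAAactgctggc
Cdc20: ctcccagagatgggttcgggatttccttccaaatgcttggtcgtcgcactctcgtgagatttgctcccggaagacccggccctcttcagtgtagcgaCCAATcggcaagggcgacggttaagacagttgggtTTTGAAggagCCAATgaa

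The libraries carried the markers of the collecting duct. Depth is unknown, because TPM keeps none, and between 12681 and 14875 genes reached 1 TPM per library. The summed TPM of 10 principal cell markers lay between 24145 and 45956 in sham and between 26738 and 33444 in UNx animals, and that of 7 podocyte markers between 9.66 and 16.4 and between 10.2 and 11.5. Among defining markers of other segments, the mean over animals was 0.123 TPM for Slc12a3 (distal convoluted tubule), 0.614 TPM for Slc12a1 (thick ascending limb) and 0.282 TPM for Lrp2 (proximal tubule). The whole lists of these segments summed to more, at 50.6 to 104 TPM in sham and 76.0 to 91.3 TPM in UNx animals for the distal convoluted tubule, and 203 to 277 and 205 to 227 TPM for the thick ascending limb. Proximal S1/S2 markers summed to 28.8 to 375 TPM in sham and 13.0 to 156 TPM in UNx animals, with 570 TPM in the second library of sham animal 1. That library stood apart, with a median correlation of 0.914 with the others, which had 0.956 to 0.969. Without it, 129 genes passed. Of 84 tested members of 15 cell type lists, 0 passed the limma threshold, and 3 were higher at an unadjusted p under 0.05, where 4.66% of all genes were.

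Genes of DNA replication and the G1 to S transition rose in part. Of 43 tested members of the S phase list, 13 rose past the threshold, where 0.581% of all genes did, and 0 fell. The median change over the list was 0.81. E2f1, the transcription factor that opens S phase, was 0.465, 0.270, 0.750 and 1.03 TPM in sham animals 1 to 4 and 4.59, 5.66, 5.02 and 4.93 TPM in UNx animals 1 to 4. Its level was low in all sham animals and the groups were far apart, with means of 0.629 ± 0.332 TPM and 5.05 ± 0.445 TPM (SD, n = 4 each) and a change of 1.96 (SE 0.19, limma adjusted p = 0.00634). The filter of 1 TPM over both groups kept E2f1 only because UNx was higher. The same held for Esco2, with a sham mean of 0.852 TPM. The count and the median of the list thus depend in part on the filter.

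The MCM helicase unwinds the DNA ahead of the fork, and 4 of its subunits and its loader rose. Mcm3 (ENSMUSG00000041859) was 5.28, 6.86, 8.57 and 5.87 TPM in sham animals and 21.3, 24.8, 24.5 and 21.8 TPM in the UNx animals. Its change was 1.71 (SE 0.17, limma adjusted p = 0.00634). Mcm5 was 7.20, 11.6, 11.4 and 6.97 TPM against 24.9, 33.8, 35.1 and 28.5 TPM, and its change was 1.67 (SE 0.21, adjusted p = 0.0108). Neither gene showed overlap between the groups, as in 3.23% of all genes with UNx higher, and the UNx animals were close to each other. Mcm6 rose by 1.00 (from 24.7 ± 3.36 to 48.4 ± 3.69 TPM, SD, n = 4 each) and Mcm7 by 0.84 (from 19.0 ± 2.90 to 34.3 ± 4.96 TPM). The helicase loader Cdc6 went from 1.26 ± 0.449 to 5.05 ± 0.216 TPM, a change of 1.49 (SE 0.19, limma adjusted p = 0.0108). The helicase subunits Mcm2 and Mcm4, named after their values were seen, did not pass, with changes of 0.42 and 0.66 (adjusted p = 0.565 and 0.143).

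Other S phase members that rose serve nucleotide supply, the copying of DNA and chromatin. Rrm1 and Rrm2 encode both subunits of ribonucleotide reductase, which makes deoxyribonucleotides. Rrm2 was 15.4, 15.7, 26.9 and 23.1 TPM in sham and 54.6, 52.7, 37.1 and 37.97 TPM in UNx animals, and Rrm1 was 25.9, 29.4, 17.9 and 22.7 TPM against 44.8, 41.0, 41.2 and 39.8 TPM. All UNx animals were above all sham animals for both, as in 3.23% of all genes. The changes were 1.17 and 0.83 (SE 0.21 and 0.14, limma adjusted p = 0.0423 and 0.0388). Uhrf1, which guides the copying of DNA methylation, rose by 1.49 and Lig1, the ligase that joins Okazaki fragments, by 1.08. Ccne1, the cyclin of the G1 to S step, rose by 1.47 and Esco2, which sets sister chromatid cohesion, by 1.61. The ratio of the UNx mean TPM to the sham mean TPM over the 13 genes ranged from 1.74 to 8.03 with a median of 3.01. The other 30 members lay between -0.02 and 1.69, at adjusted p from 0.0512 up. Pcna (change 0.51, adjusted p = 0.0512) and Tk1 (1.69, adjusted p = 0.0512), named here after their values were seen, were nearest to the threshold. At an unadjusted p under 0.05, 37 of the 43 members were higher, where 4.66% of all genes were.

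Genes of mitosis and cytokinesis had a larger median change. Of 39 tested members, 28 rose past the threshold, where 0.581% of all genes did, and 0 fell. The median change was 1.53. In 38 of the 39 the UNx animals lay above all sham animals, which was so in 3.23% of all genes, and all 39 were higher at an unadjusted p under 0.05. Bub1 and Kif11 had sham means of 0.608 and 0.982 TPM, so the filter kept them only because UNx was higher. The counts and the median of this list thus depend in part on the filter. For the 28 genes that rose, the ratio of mean TPM ranged from 1.85 to 7.88 with a median of 4.47. The other 11 members had changes from 0.84 to 1.45 and adjusted p from 0.0539 to 0.351, and Mki67, which encodes the proliferation antigen Ki-67 and is named here after its values were seen, was among them (1.45, adjusted p = 0.0783). Summed over the list, TPM was 126, 143, 176 and 222 in sham animals 1 to 4 and 576, 696, 555 and 412 in UNx animals 1 to 4. More dividing cells and more RNA per dividing cell cannot be told apart in tissue RNA, nor can fewer cells and less RNA per cell for any gene below.

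**Figure D1:**
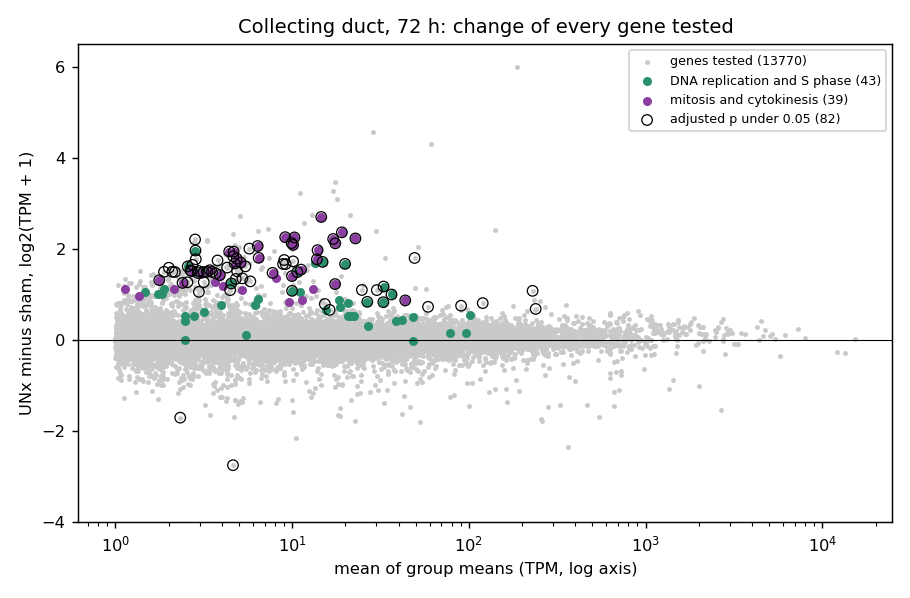
Change between UNx and sham (difference of log2(TPM + 1), y axis) of each of the 13770 genes tested, against the mean of the group means in TPM (log x axis). Green points are the 43 S phase and purple points the 39 mitosis members, and black circles mark the 82 genes past the threshold, of which 2 lie below 0.

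Cyclins and their kinases were among the genes with the largest changes. Cdk1 was 5.26, 5.29, 6.20 and 14.6 TPM in sham animals and 40.7, 49.4, 36.6 and 24.5 TPM in the UNx animals. The change was 2.23 (SE 0.30, limma adjusted p = 0.0132). Ccna2, the cyclin of S phase and early mitosis, was 1.69, 2.12, 2.56 and 4.95 TPM against 15.3, 18.1, 17.4 and 11.03 TPM, a change of 2.26 (SE 0.24, adjusted p = 0.00794). In both genes sham animal 4 was the highest of its group and UNx animal 4 the lowest of its group. The groups did not overlap, as in 3.23% of all genes with UNx higher. Ccnb2, a mitotic cyclin, was 2.41, 2.31, 4.31 and 5.54 TPM against 17, 20.3, 17.4 and 11.8 TPM (change 2.09, SE 0.27, adjusted p = 0.0111). Ccnb1, the other main mitotic cyclin, rose by 1.94 (adjusted p = 0.0182), and Cks2, a small partner of these kinases, by 1.23.

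The mitotic kinases Pbk, Aurkb and Plk1 rose as well. Pbk (ENSMUSG00000022033), a mitotic kinase, had the largest rise in log2(TPM + 1) of all genes that passed, though not the largest ratio of mean TPM. It was 1.62, 3.78, 2.85 and 4.92 TPM in sham and 22.6, 38.8, 23.2 and 19.2 TPM in UNx animals, and the UNx mean was 7.88 times the sham mean (change 2.70, SE 0.28, limma adjusted p = 0.00634). Aurkb, the kinase of the chromosomal passenger complex, was 1.17, 2.60, 5.60 and 4.22 TPM against 19.2, 18.8, 15.1 and 12.9 TPM (change 2.13, SE 0.33, adjusted p = 0.0221). Its partner Birc5 (survivin) was 4.08, 4.79, 4.18 and 8.26 TPM against 23.2, 28.4, 20.2 and 18.4 TPM (change 1.97, SE 0.20, adjusted p = 0.00634). A further member of that complex, Cdca8, rose by 1.47 (adjusted p = 0.0317). Plk1, the polo kinase that acts from mitotic entry to exit, was 1.05, 0.870, 3.13 and 3.4 TPM in sham and 10.5, 16.1, 9.39 and 6.69 TPM in UNx animals (change 2.06, SE 0.33, adjusted p = 0.0269). UNx animal 4 had the lowest Plk1 of its group and lay above every sham animal, as the UNx animals did in 3.23% of all genes.

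Genes that separate chromosomes and end mitosis rose too. Top2a was 1.66, 2.85, 3.72 and 4.54 TPM in sham and 16.3, 20.6, 19.6 and 13.3 TPM in UNx animals (change 2.25, SE 0.26, limma adjusted p = 0.00962). Ube2c, the ubiquitin-conjugating enzyme of the anaphase-promoting complex, was 2.52, 6.07, 9.27 and 7.27 TPM against 31.2, 44.8, 31.8 and 20.1 TPM (change 2.36, SE 0.38, adjusted p = 0.0275). Its activator Cdc20 was 5.25, 3.99, 5.83 and 10.8 TPM against 32.9, 35.3, 30.1 and 16.2 TPM (change 2.12, SE 0.28, adjusted p = 0.0129). UNx animal 2 was the highest of all 8 animals in these 3 genes. Cdca3, a trigger of mitotic entry, was 3.54, 2.00, 8.44 and 10.8 TPM in sham and 26.4, 39.1, 24.97 and 21.4 TPM in UNx animals (change 2.22, SE 0.39, adjusted p = 0.0408). Kif20a, a motor of cytokinesis, was 1.48, 1.60, 2.70 and 4.45 TPM against 11.3, 13.1, 10.5 and 6.62 TPM (change 1.80, SE 0.27, adjusted p = 0.0216). The groups did not overlap in either gene, as in all 80 higher genes and in 3.23% of all genes.

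**Figure D2:**
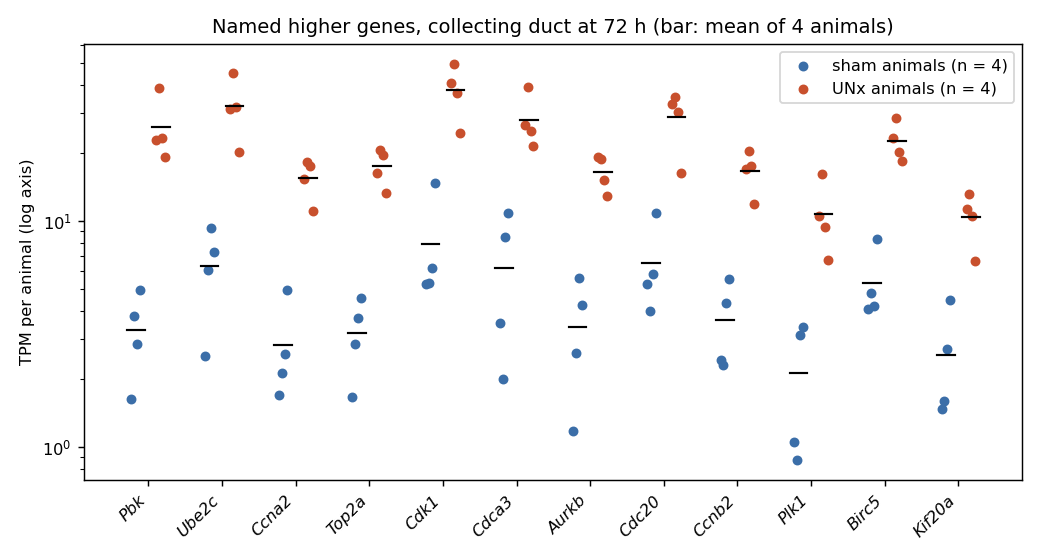
TPM (log y axis) of the 12 named higher genes in each of 4 sham animals (blue) and 4 UNx animals (red), with black bars for group means. All 12 are mitosis genes, and in each the lowest UNx animal lies above the highest sham animal, which was a condition of their choice.

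The remaining mitosis members that rose cover the kinetochore, the spindle and the cleavage furrow. The kinetochore genes Ndc80, Nuf2 and Spc25 rose by 1.25, 1.43 and 0.87, and Cenpa, the histone variant that marks the centromere, rose by 1.54. The spindle checkpoint kinases Bub1 and Bub1b rose by 1.31 and 1.79 (limma adjusted p = 0.0352 and 0.0108). Spindle genes rose by 1.51 for the motor Kif11, 1.70 for Tpx2, 1.68 for Nusap1, 1.40 for Tacc3 and 1.53 for Hmmr. Prc1 and Anln, which organise the midzone and the cleavage furrow, rose by 1.77 and 1.94. Spc25 began from the highest sham level of these genes, 30.6 ± 3.60 TPM (SD, n = 4), and reached 56.7 ± 6.52 TPM after UNx.

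The UNx animals were not alike in mitosis genes. UNx animal 4 had the lowest value of its group in 36 of the 39 mitosis members, but in 18 of the 43 S phase members. Sham animal 4 had the highest value of its group in 22 of the 39 mitosis members and in 10 of the 43 S phase members. The summed S phase TPM lay between 699 and 711 in sham and between 979 and 1161 in UNx animals. The 16 markers of macrophages and leukocytes, cells that also divide, summed to 375, 703, 325 and 505 TPM in sham and to 584, 697, 343 and 496 TPM in UNx animals, so these groups overlapped. Of 12 such markers tested, 0 passed the limma threshold and 0 had an unadjusted p under 0.05. The markers of T cells (Cd3e, mean 0.147 TPM) and B cells (Cd79a, 0.105 TPM) were near 0. The part of leukocytes in the cell cycle changes was not tested.

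The counts depended on single animals more than the direction did. Without UNx animal 1, 2 or 3, the number of genes that passed fell from 82 to 14, 10 and 8, and the mitosis members among them from 28 to 4, 3 and 3. Without UNx animal 4 or sham animal 2 it was 43, with 20 and 16 mitosis members. Without a minimum level, over 28950 genes, 7 passed, 3 of them mitosis members. In each of these fits every tested mitosis member was higher in UNx at an unadjusted p under 0.05. Over the 8 fits that leave out an animal the list's median change lay between 1.40 and 1.69. Without the sham library that stood apart, 30 mitosis and 16 S phase members rose.

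In a list of 20 tested cell cycle inhibitors, D-type cyclins and their partners, 1 member passed, where 0.595% of all genes did. The median change was -0.0013. Cdkn2c, which encodes the CDK4/6 inhibitor p18, was 9.44, 11.04, 10.5 and 13.0 TPM in sham and 20.7, 22.0, 18.2 and 17.6 TPM in UNx animals. The change was 0.79 (SE 0.14, limma adjusted p = 0.0382). Cdkn2b, which encodes the related inhibitor p15, had the opposite sign but did not pass. It was 24.8, 28.4, 23.9 and 17.8 TPM in sham and 14.1, 14.2, 8.96 and 7.71 TPM in UNx animals, without overlap (change -1.04, SE 0.22, adjusted p = 0.0933). UNx was lower without overlap in 1.54% of all genes. The changes of Ccnd1 and Cdk4 were 0.08 and 0.11, and that of the p53 target Cdkn1a (p21) was -0.15, with adjusted p of 0.971, 0.911 and 0.972. These 3 were named after their values were seen.

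Of the 39 higher genes in neither list, 3 are given here, chosen after their values were seen. The histone chaperone Asf1b was 4.11, 3.32, 4.09 and 4.26 TPM in sham and 14.0, 16.2, 15.7 and 12.0 TPM in UNx animals (change 1.67, SE 0.15, limma adjusted p = 0.00634). Stmn1, which destabilises microtubules, was 16.5, 20.9, 18.8 and 30.8 TPM against 84.5, 92.8, 72.7 and 57.7 TPM (change 1.80, SE 0.20, adjusted p = 0.00805). Ptn, the secreted growth factor pleiotrophin, was 1.49, 2.39, 2.03 and 3.34 TPM against 5.42, 9.51, 7.82 and 6.40 TPM (change 1.34, SE 0.22, adjusted p = 0.0323). None of the 3 genes overlapped between groups, as in all 80 higher genes and in 3.23% of all genes. Both lower genes are predicted genes of low level, Gm36956 with means of 4.44 and 0.221 TPM in sham and UNx (change -1.71, adjusted p = 0.0133) and Gm20650 with means of 9.01 and 0.248 TPM (change -2.75, adjusted p = 0.0435). Gm20650 was listed at 0 in UNx animals 1 to 3.

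In the lists of glycolysis and of the respiratory chain, 3 members rose past the threshold, where 0.581% of all genes did. Pgam1, the phosphoglycerate mutase of glycolysis, was 87.6, 76.5, 80.7 and 104 TPM in sham and 142, 141, 163 and 164 TPM in UNx animals (change 0.81, SE 0.11, limma adjusted p = 0.0177). Cycs, the electron carrier cytochrome c, was 217, 125, 116 and 152 TPM against 307, 236, 309 and 374 TPM (change 1.08, SE 0.17, adjusted p = 0.0275). Sdhc, the membrane subunit of succinate dehydrogenase, was 184, 160, 177 and 213 TPM against 310, 263, 300 and 303 TPM (change 0.68, SE 0.11, adjusted p = 0.0221). The groups did not overlap in any of the 3, as in all 80 higher genes and in 3.23% of all genes. Pgam1 was the only one of 21 glycolysis rows to pass (median change 0.22), and Slc16a3, a lactate exporter, was next by p (change 1.00, adjusted p = 0.136). Cycs and Sdhc were the only ones of 59 nuclear respiratory chain genes to pass (median 0.24). At an unadjusted p under 0.05, 22 of these 59 genes and 6 of the 21 glycolysis rows were higher, and 0 were lower. Over all genes, 4.66% were higher and 2.82% lower at this level. Summed TPM of the 59 genes was 80394 in sham animal 1, inside the UNx range of 74646 to 84756, and 58012 to 69495 in the other sham animals. Copies of Cycs and Pgam1 elsewhere in the genome could share reads with them, which makes their levels uncertain.

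Cytosolic ribosomal proteins, the core of the growth machinery, did not pass in any of 78 tested members. Their median change was 0.27, and 38 were higher and 0 lower at an unadjusted p under 0.05. Over all genes, 4.66% were higher and 2.82% lower at this level. The 2 with the smallest p were Rps29 (168 ± 35.5 and 298 ± 68.8 TPM, SD, n = 4 each; change 0.88, limma adjusted p = 0.110) and Rpl12 (29.1 ± 1.71 and 42.8 ± 6.83 TPM; change 0.55, adjusted p = 0.143). UNx animal 1 stood apart with the lowest value of its group in 75 of 78 members and a summed TPM of 12722, below the sham range of 12786 to 13986, while the other 3 UNx animals had 15342 to 16583. In the list of growth factors, receptors and the mTOR pathway, 0 of 43 members passed, 1 was lower at an unadjusted p under 0.05 and the median change was -0.0071. Irs2, an adaptor of insulin signalling, was the member of smallest p (change -1.23, adjusted p = 0.574), and Hbegf, a ligand of the EGF receptor, followed (-0.77, adjusted p = 0.685).

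**Figure D3:**
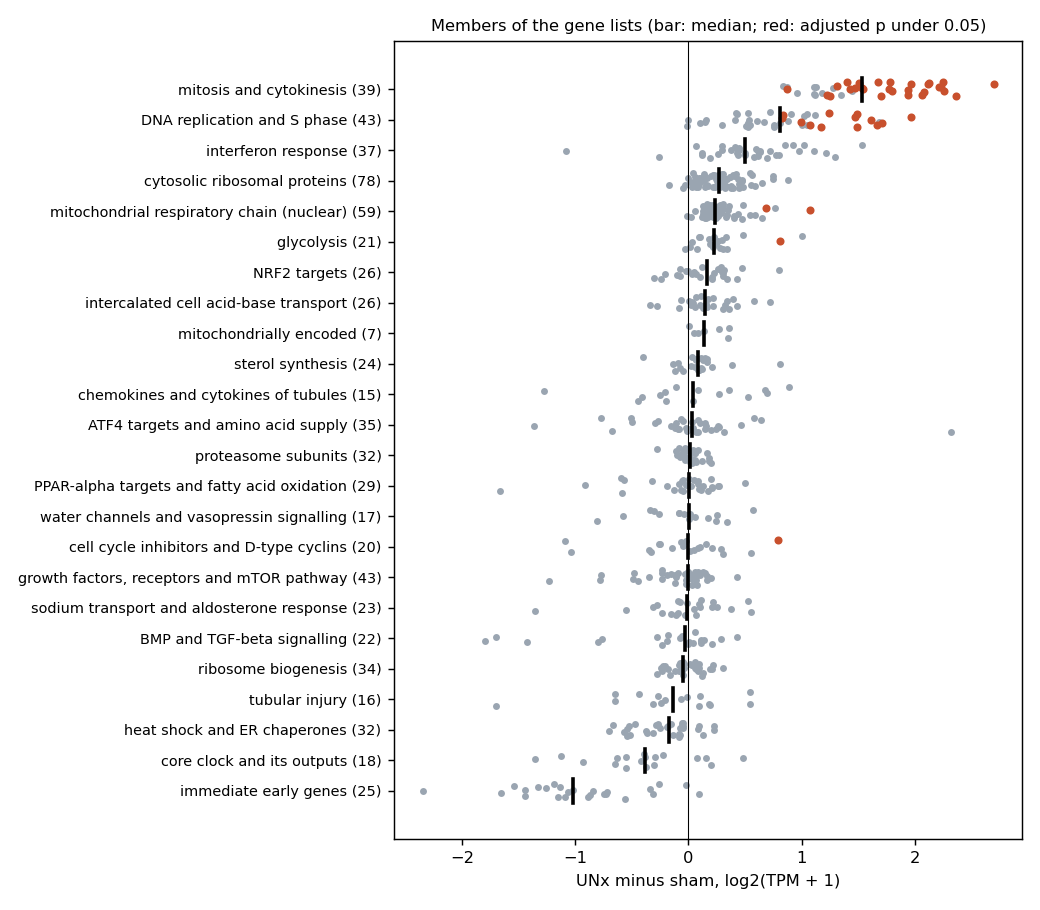
Changes between UNx and sham (difference of log2(TPM + 1), x axis) of each tested member of 24 gene lists, with the number tested in parentheses, black bars for list medians and red points for members past the threshold. The mitosis and S phase medians are 1.53 and 0.81, the immediate early gene median is -1.02, and 19 lists have no red point.

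Immediate early genes, which cells switch on within minutes of a stimulus, were the list with the lowest median, -1.02, but 0 of 25 members passed. At an unadjusted p under 0.05, 14 were lower and 0 higher, where 2.82% of all genes were lower. Klf6 was 180, 302, 301 and 177 TPM in sham and 128, 190, 98.5 and 100 TPM in UNx animals (change -0.89, SE 0.25, limma adjusted p = 0.285), and Ier2 had a change of -0.87 (adjusted p = 0.293). The groups overlapped, because UNx animal 2 was above sham animals 1 and 4 for Klf6. Summed TPM of the list was 9379, 18775, 21365 and 12967 in sham and 7321, 12234, 3789 and 5825 in UNx animals, so the groups overlapped. The core clock list had a median of -0.39 with 0 of 18 members past the threshold and 5 lower at an unadjusted p under 0.05. Its members of smallest p were Per1 (change -1.36, adjusted p = 0.285) and Rora (-0.42, adjusted p = 0.400).

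In the list of BMP and TGF-beta signalling, pathways known to restrain the growth of many epithelia, 0 of 22 members passed. At an unadjusted p under 0.05, 5 were lower and 0 higher, where 2.82% and 4.66% of all genes were. Of the 22 changes, 10 were above and 12 below 0, with a median of -0.028. Id3, an inhibitor of differentiation factors and a direct BMP target, was 426, 753, 382 and 350 TPM in sham and 247, 231, 121 and 112 TPM in UNx animals (change -1.43, SE 0.31, limma adjusted p = 0.107). Id2 was 743, 1181, 938 and 785 TPM against 609, 668, 460 and 405 TPM (change -0.77, SE 0.19, adjusted p = 0.187). The groups did not overlap in either gene, as in 1.54% of all genes with UNx lower. The other genes of smallest p among those with lower, non-overlapping UNx values also missed the threshold. They were Gm47162 (-0.97), Scp2-ps2 (-0.74), Clk1 (-0.48), Ypel2 (-0.87), Sertad3 (-0.94), Tbcc (-0.53), Gm8797 (-1.17) and Usp53 (-0.61), at adjusted p from 0.0883 to 0.180.

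Interferon response genes, the antiviral program, had a median change of 0.50 with 0 of 37 members past the threshold. At an unadjusted p under 0.05, 8 were higher and 0 lower, where 4.66% and 2.82% of all genes were. Dhx58, a sensor of viral RNA, had a change of 0.92 (limma adjusted p = 0.329). UNx animal 3 had the lowest value of its group in 34 of the 37 members and, with a summed TPM of 437, lay below all sham animals (692 to 934), while the other UNx animals had 1068 to 1245. Without it the list's median change was 0.80 and 1 member passed, but leaving out the lowest UNx animal raises the change in itself.

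Lists of stress and injury held no member past the threshold. Tubular injury genes (16 tested, median change -0.14), heat shock and endoplasmic reticulum chaperones (32 tested, -0.17), ATF4 targets (35 tested, 0.028), NRF2 targets (26 tested, 0.16) and tubule chemokines and cytokines (15 tested, 0.042) were of this kind. At an unadjusted p under 0.05, 2 injury genes, 6 chaperones and 4 ATF4 targets were lower, and 3 ATF4 targets, 7 NRF2 targets and 1 cytokine were higher. Over all genes, 2.82% were lower and 4.66% higher at this level. Ddit3, the stress factor CHOP, was 158, 236, 394 and 156 TPM in sham and 83.4, 167, 57.7 and 60.5 TPM in UNx animals (change -1.37, limma adjusted p = 0.257). Gdf15, a secreted stress signal, was 330, 1509, 1116 and 330 TPM in sham and 286, 565, 74.7 and 126 TPM in UNx animals (change -1.70, adjusted p = 0.596). Both overlapped between groups, with sham animals 2 and 3 high. The lists of sterol synthesis, PPAR-alpha targets, ribosome biogenesis, proteasome subunits and mitochondrially encoded genes had medians between -0.046 and 0.13 and also 0 members past the threshold. Of the last list 7 of 13 protein genes were tested, because the other 6 were listed at 0 in every library.

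Transport genes that define the segment did not pass the test. Aqp2, the apical water channel of principal cells, was 15339, 27745, 9362 and 11081 TPM in sham and 10567, 15965, 15347 and 17766 TPM in UNx animals (change 0.014, SE 0.31, limma adjusted p = 0.997). The basolateral channel Aqp3 had a change of -0.087 and the vasopressin receptor Avpr2 one of 0.0031, with adjusted p of 0.971 and 0.999. Scnn1b, the beta subunit of ENaC, was 1034 ± 149 TPM in sham animals and 1006 ± 31.1 TPM after UNx (SD, n = 4 each). Its change was -0.0085 with a 95% confidence interval from -0.28 to 0.26, which does not exclude moderate changes in either direction. Hsd11b2, which keeps cortisol-like steroids off the aldosterone receptor, had a change of 0.10 (adjusted p = 0.966). The water and vasopressin list (17 tested) and the sodium and aldosterone list (23 tested) had medians of 0.0011 and -0.0085, with 0 members past the threshold in each. At an unadjusted p under 0.05, where 2.82% of all genes were lower, 2 members were lower in each list. These were Pde4d (-0.58) and Elf3 (-0.81), and Per1 (-1.36) and Usp2 (-0.56).

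**Figure D4:**
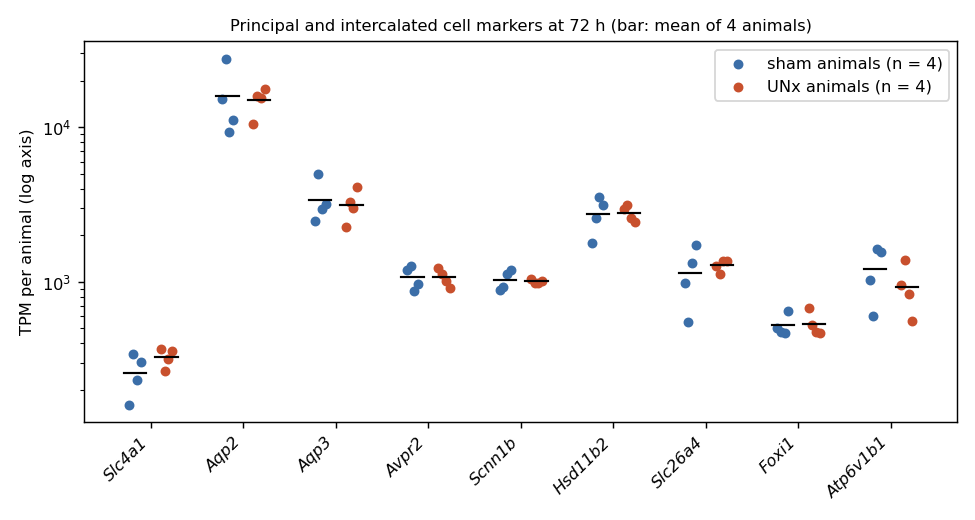
TPM (log y axis) of 9 principal and intercalated cell markers in each of 4 sham animals (blue) and 4 UNx animals (red), with black bars for group means. The groups overlap for every marker, and Aqp2 in sham spans 9362 to 27745 TPM.

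Intercalated cell genes did not pass either. Slc4a1, the basolateral anion exchanger of acid-secreting type A cells, was 160, 340, 233 and 305 TPM in sham and 368, 267, 316 and 359 TPM in UNx animals (change 0.58, SE 0.35, limma adjusted p = 0.825). Slc26a4 (pendrin), the apical exchanger of type B cells, had a change of 0.32, the proton pump subunit Atp6v1b1 one of -0.34 and the intercalated cell regulator Foxi1 one of 0.054, with adjusted p from 0.900 to 0.973. The acid-base transport list had a median of 0.14 over 26 members with 0 past the threshold and 0 at an unadjusted p under 0.05 in either direction. Klk1, the kallikrein made by the neighbouring connecting tubule, was 29.2, 11.2, 113 and 67.5 TPM in sham and 184, 103, 299 and 314 TPM in UNx animals (change 2.41, SE 0.65, limma adjusted p = 0.246). The groups overlapped for Klk1. Summed TPM of the 6 connecting tubule markers was 447 to 3083 in sham and 816 to 4415 in UNx animals. The part of that tubule in Klk1 was not tested.

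The cell cycle genes were also compared with CCD at 24 h, from other libraries with their own sham group (8 sham libraries of 4 animals, 7 UNx libraries of 3 animals). At 24 h, 136 of 13775 genes passed (0.987%), 45 of them higher (0.327%). Of the 80 genes higher at 72 h, 33 (41.2%) were also higher at 24 h, which is 73.3% of the 45. For mitosis, 19 of 38 tested members passed at 24 h, all of them among the 28 that passed at 72 h, and the median changes were 1.27 and 1.53. For S phase, 2 of 42 tested members passed at 24 h, of which 1, Rrm2, also passed at 72 h, and the medians were 0.49 and 0.81. Cdk1 went from 6.80 ± 2.83 TPM (SD, n = 4) to 24.95 ± 5.65 TPM (SD, n = 3) at 24 h and Mcm3 from 6.26 ± 1.53 to 13.9 ± 4.85 TPM.

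The difference between the times itself did not pass for any gene. By limma, 0 of 13253 genes differed in their UNx effect between 72 h and 24 h (0%), and 658 did at an unadjusted p under 0.05. The effect at 72 h minus that at 24 h was 0.88 for Mcm5 (SE 0.37), 0.69 for Mcm3 (SE 0.31), 0.64 for E2f1 (SE 0.33) and 0.38 for Cdk1 (SE 0.45), at adjusted p from 0.968 to 0.981. For the 3 metabolic genes it was 0.62 for Pgam1 (SE 0.18), 0.51 for Sdhc (SE 0.16) and 0.79 for Cycs (SE 0.29), each at an adjusted p of 0.968. The change at 24 h was above that at 72 h in 2 mitosis members and 7 S phase members. With 3 or 4 animals a group, a missed threshold does not show that the times were alike.

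In the S1 part of the proximal tubule (PT-S1) at 72 h, from 12 libraries of 5 animals in each group, 0 of 11886 genes passed (0%), and 2432 had an unadjusted p under 0.05. There the median change of all genes was -0.29. Of 27 tested mitosis members 0 passed, 23 had an unadjusted p under 0.05, all 27 changes were above 0, and the median was 1.09, or 1.38 above that of all genes. The filter on the mean over both groups kept members under 1 TPM in sham only where UNx was higher. Plk1 was such a member, with means of 0.404 TPM in sham and 3.17 TPM in UNx. The signs and the median of the tested members thus depend in part on the filter. Of 35 tested S phase members 0 passed, and 5 had an unadjusted p under 0.05, a smaller share than the 2432 of all 11886 genes. Of these 35 members, 20 had changes above 0, and the median was 0.096, or 0.38 above that of all genes. Cdk1 had means of 1.85 TPM (sham) and 11.5 TPM (UNx) there (change 1.80, limma adjusted p = 0.237), and Mcm3 was 2.49 and 4.34 TPM (0.52, adjusted p = 0.329).

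No gene passed the test of the difference between the segments. By limma, 0 of 11035 genes had an effect that differed between CCD and PT-S1 at 72 h (0%), with 1030 at an unadjusted p under 0.05 and a smallest adjusted p of 0.179. Pgam1 (difference 1.22, SE 0.23) and Stmn1 (1.77, SE 0.34) were among the genes at that value. The effect in CCD minus that in PT-S1 was 1.195 for Mcm3 (SE 0.43) and 0.43 for Cdk1 (SE 0.68), at adjusted p of 0.495 and 0.741. The median over these genes of the effect in CCD minus that in PT-S1 was 0.30, and 0.019 with quantile normalization. Tables were deposited separately for each segment and time, so only differences of effects, not levels, were tested across them. The titles do not say whether both segments came from the same mice. The test took their animals as separate and used no pairing.

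**Figure D5:**
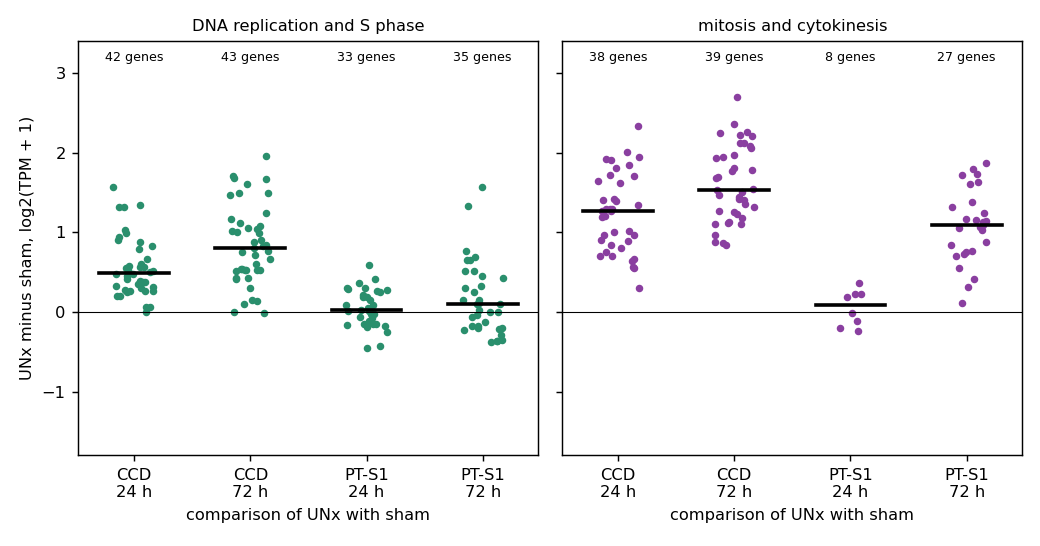
Changes between UNx and sham (difference of log2(TPM + 1), y axis) of the tested S phase members (left) and mitosis members (right) in 4 comparisons, with black bars for medians and the number of genes above each column. Mitosis medians are 1.27 and 1.53 in CCD and 1.09 in PT-S1 at 72 h, and 8 mitosis genes were tested in PT-S1 at 24 h, with a median of 0.091. Members averaging under 1 TPM over both groups of a comparison are not shown for it.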

How the data were processed

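The authors deposited TPM values per gene and library, in 1 table for each segment and time, made with STAR and RSEM 1.3.3 on GRCm39, per the submitters' processing notes. The annotation release is not given in the sources used here. TPM scales each library to the same total, so a rise of some genes lowers the share of others, and no depth or counting error can be had. Of the 13 columns used, 2 (UNx animal 4) match an animal but not 1 library.

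Log2(TPM + 1) was averaged over the libraries of an animal, and genes averaging 1 TPM or more were tested by limma 3.58.1 (R 4.3.3) with a mean-variance trend, two-sided, with Benjamini-Hochberg adjustment over all genes tested and a threshold of 0.05. Effects were compared between tables in a model of the 4 groups. The fit was tested on simulated data. Replicate numbers were not used as a block, since the deviations of same-numbered animals correlated by 0.15, 0.0097, 0.18 and -0.0095. The closing section gives the effect of the 21 other settings tried.

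Named genes were up to 12 per direction past the threshold with a mean of at least 10 TPM in a group and no overlap, by size of change, filled to 10 by smallest p where fewer passed, plus for each list described its 2 members of smallest p and those past the threshold, and 9 segment markers. Predicted genes, Rik genes and pseudogenes were passed over in the first step only. Results of 2 genes of these lists are not reported here, though counts include them. The members and lists were chosen with earlier results of these data known. Figures were drawn with matplotlib 3.10.9 (Python 3.11.15).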

Additional observations from a re-analysis of the deposited data

Results flagged for a closer look

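In 214 groups of 4 animals, 1 animal each stood apart from the other 3 for 9 genes by Dixon's criterion, which chance gives in about 1 of 20 groups. Of these, 8 are given here. Among cell cycle genes these were Uhrf1 in sham animal 1 (3.83 TPM against 5.66 to 5.96) and Spc25 in sham animal 2 (25.3 TPM against 31.7 to 33.0), both on the side away from the UNx animals. UNx animal 2 stood low for Hadha, an enzyme of fatty acid oxidation (132 TPM against 148 to 151), and high for Irs2 (32.8 TPM against 17.8 to 19.5). Sham animal 4 stood low for Tnfrsf12a, the receptor of TWEAK (72.9 TPM against 107 to 114), and for Gm8797 (20.9 TPM against 36.4 to 40.1), and high for Foxi1 (653 TPM against 468 to 500). Sham animal 3 stood high for Tbcc, a tubulin folding factor (131 TPM against 108 to 111).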

How the results depend on the processing

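The 4 animals a group and the unknown depth limit every count. The number of genes past the threshold was 82 as reported, with 80 higher and 2 lower. It was 65 (65 higher, 0 lower) with a pseudocount of 0.1 and 86 (3 lower) with a pseudocount of 5. It was 7 (7 higher, 0 lower) over 28950 genes with TPM above 0 in at least 3 animals, 39 (39 and 0) with a mean TPM of at least 5, and 150 (135 and 15) with every library as a replicate. Lower genes numbered 9 with the animal as a random effect, 3 with log2 of the mean TPM per animal, 5 with quantile normalization, 3 with median-ratio scaling, 13 with array weights, 4 without the mean-variance trend, and 14 of 129 without the library that stood apart. The replicate block, which the labels do not support as a pairing, gave 3 genes (3 higher, 0 lower). Over the fits that leave out an animal, the count ranged from 8 to 73, higher genes from 8 to 70 and lower genes from 0 to 9. The cause of these shifts was not tested. The differences between times and between segments gave 0 genes in the other settings, between 0 and 1 with an animal left out (1 without sham animal 4, times) and 1 over 23265 genes without the filter (segments). Each named gene past the threshold kept its direction in every setting in which it was tested, which at a mean TPM of at least 5 were 31 of 45. Changes near 0 that turned sign were those of Aqp2 (-0.0057 with median-ratio scaling, -0.00042 without the library that stood apart, -0.20 to 0.33 with an animal left out), Aqp3 (-0.22 to 0.11), Avpr2 (-0.0041 with the mean TPM, -0.028 with quantile normalization, -0.017 with median-ratio scaling, -0.069 without that library, -0.089 to 0.091), Scnn1b (-0.10 to 0.071), Hsd11b2 (-0.0048 with quantile normalization, -0.16 with array weights, -0.094 without that library, -0.15 to 0.25), Slc26a4 (-0.0077 with array weights) and Foxi1 (-0.0030 with every library, -0.12 with array weights, -0.081 without that library, -0.059 to 0.17).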

Other observations

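The 2 largest positive changes of all genes tested, named after their values were seen, did not pass. Gm26377 was 149, 0, 0 and 11.2 TPM in sham and 103, 384, 539 and 318 TPM in UNx animals (change 5.99, limma adjusted p = 0.0791), and Snord13, a small nucleolar RNA, was listed at 0 in all sham animals and at 42.2, 0, 77.9 and 108 TPM in UNx animals (change 4.56, adjusted p = 0.238). The groups overlapped for both.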
